A study of Mus musculus with 15 samples.

Results

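The genes of the circadian clock were followed in the colon of Il10-/- and C57 mice. They were chosen by symbol from a list of 10 core clock genes (Arntl, Clock, Npas2, Per1, Per2, Per3, Cry1, Cry2, Dbp and Tef), and all 10 were measured, by 19 of the 42128 array features tested and as 10 of 19076 genes. The study set Il10-/- mice, which lack the anti-inflammatory cytokine interleukin 10 and develop colitis, against wild-type C57 mice of the same background. Single mice were placed on 15 arrays. At 7 weeks of age these were the 3 Il10-/- animals numbered 75, 77 and 78, against the 4 C57 animals numbered 43 to 46. At 12 weeks they were the 4 Il10-/- animals numbered 92, 94, 95 and 96, against the 4 C57 animals numbered 63 to 66. Values of single mice are given below in these orders. Il10-/- mice carried the targeted allele Il10 tm1Cgn on a C57BL/6J background, and C57 mice were C57BL/6J. All mice were male, ate an AIN-76A diet and had been inoculated by mouth with Enterococcus faecalis, E. faecium and the gut flora of healthy mice. They lived in a 12-hour light-dark cycle, and their food was adjusted each day to what Il10-/- mice had eaten the day before. A period of fasting and feeding came before sampling, and its hours are not given in the sources used here. The Il10-/- mice of 7 weeks were those free of colitis, since inflamed animals of that age were set aside in the study, whereas those of 12 weeks had moderate colitis. Genotype and age were read from the sample titles, because the other labels give 1 strain and 1 age to all arrays.

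Each value was the log2 ratio of colon RNA from a single mouse, in full thickness of the colon wall, over 1 RNA pool from several tissues and fetuses of Swiss mice, so a level below 0 means less signal than in the pool and levels of different genes cannot be set against each other. Fewer cells of a type and less RNA per cell cannot be told apart in such samples. The time of day of sampling, which sets the level of many clock genes, is not given in the sources used here, and neither is whether the groups were sampled at the same time. Between 41687 and 42147 of 44290 features had a value on an array. Liver genes of the pool, such as albumin, averaged -3.72 to -2.99 per mouse and colon epithelial genes 0.49 to 0.93, which places colon RNA in the numerator. Il10 itself was not called between genotypes (0.14 ± 0.08 at 7 weeks and 0.13 ± 0.08 at 12 weeks, log2 difference ± SE), with values in single mice of -0.17 to 0.25, and since its feature may sit outside the deleted stretch this does not check the labels. All fits are limma's, p values are adjusted by Benjamini-Hochberg over all genes, and a gene was called at an adjusted p under 0.05 with a fold of 1.5 or more.

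The mammalian clock is a transcriptional loop. CLOCK or its relative NPAS2 pairs with ARNTL (BMAL1) and switches on Per and Cry genes through E-boxes, and the PER and CRY proteins then build up and block that pair, so that Arntl and the Per genes peak at opposite times of the day. The REV-ERB receptors (Nr1d1, Nr1d2) repress Arntl, while DBP, TEF and HLF carry the rhythm outwards by activating genes with D-boxes, which NFIL3 represses. The colon has a clock of its own, which feeding time can set.

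The promoters of the members were read from RefSeq (build GRCm38.p6, 300 bases from 250 before to 50 after each annotated start). They are shown because the members form their loop through these elements. Of the 14 promoters of 9 members, all but Per2, 4 held the E-box CACGTG, and of all 32851 promoters of that length 7.15% hold it. The D-box, searched as TTATGTAA or TTACGTAA on both strands, lay in 1 of 14 member promoters, against 1.06% of all promoters. In the runs below, 5′ to 3′ on the strand of the gene, capitals mark the E-box or D-box:
Per1 (E-box, chr11:69098751-69098820, plus strand): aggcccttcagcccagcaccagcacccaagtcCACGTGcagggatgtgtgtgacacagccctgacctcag
Cry1 (E-box, chr10:85185077-85185146, minus strand): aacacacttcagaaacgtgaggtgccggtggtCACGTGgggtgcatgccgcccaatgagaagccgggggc
Tef (E-box, chr15:81802514-81802583, plus strand): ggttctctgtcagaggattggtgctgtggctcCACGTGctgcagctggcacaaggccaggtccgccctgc
Tef, second start (E-box, chr15:81811244-81811313, plus strand): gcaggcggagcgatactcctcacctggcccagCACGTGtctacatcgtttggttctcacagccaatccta
Per3 (D-box, chr4:151044784-151044902, minus strand): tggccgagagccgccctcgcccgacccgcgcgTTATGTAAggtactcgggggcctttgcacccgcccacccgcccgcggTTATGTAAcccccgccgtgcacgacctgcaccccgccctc

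The E-box began 166 bases before the first Per1 start, 60 before the Cry1 start, and 127 and 138 before the starts of Tef. The D-boxes of Per3 began 205 and 158 bases before its start. The windows of Dbp, Arntl, Clock, Npas2 and Cry2 held neither set of letters, which says nothing of sites further away. The receptor half-site AGGTCA, searched on both strands, was in 3 of the 14 member promoters, 1 each of Arntl, Clock and Per1, and in 16.3% of all promoters.

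None of the 10 members was called between Il10-/- and C57 mice at 7 weeks, when 2.42% of all genes were called, or at 12 weeks, when 2.52% were. At an unadjusted p under 0.05 in the limma fit, 4 of 10 members stood out at 7 weeks (Dbp, Cry2, Per2 and Per3), with a background of 21.2% of all genes, and 2 of 10 at 12 weeks (Cry1 and Npas2), with a background of 22.9%. The members' median log2 difference was -0.07 at 7 weeks against -0.01 for all genes. Their median absolute difference was 0.13 against 0.09 at 7 weeks and 0.14 against 0.09 at 12 weeks. The mice of both genotypes did not overlap for 3 of 10 members at 7 weeks (Dbp, Per2 and Cry2, all lower in Il10-/-), while 23.1% of all genes did not overlap, and for 0 of 10 at 12 weeks, with a background of 13.5%. Among 10 genes, 1 gene makes up 10% of such a share.

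**Figure D1:**
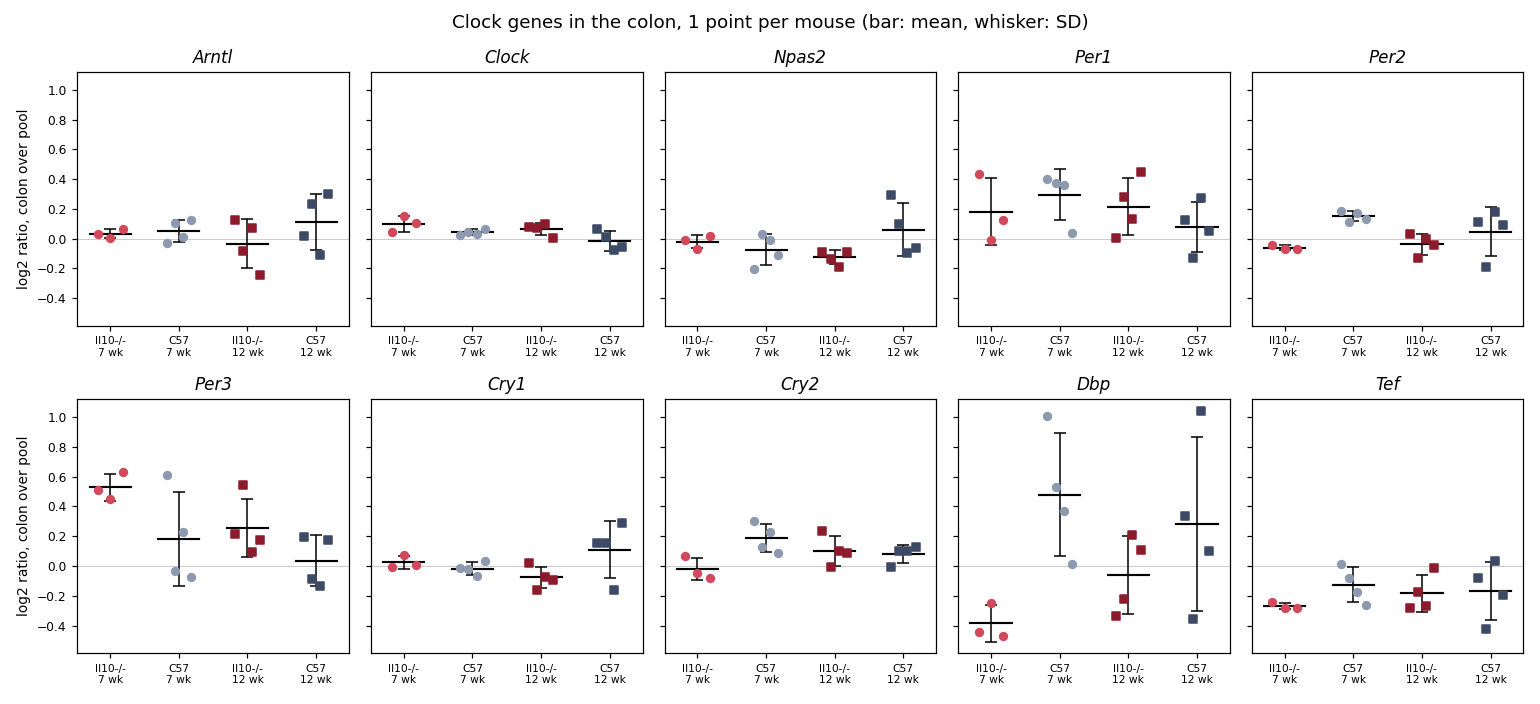
Level of each of the 10 clock genes in single mice (log2 ratio of colon over the RNA pool, mean of a gene's features), with 1 point per mouse, the group mean as a bar and the SD as a whisker, for Il10-/- and C57 mice of 7 and of 12 weeks. Dbp spreads over the widest range, -0.47 to 1.04, and in the 7-week mice its Il10-/- points all lie below those of C57, while Clock spans only -0.08 to 0.15.

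No activator of the loop passed the test between genotypes at either age. Arntl (chr7:113178471-113314126), which encodes BMAL1, the partner that the loop cannot do without, had levels of 0.04, 0.00 and 0.07 in Il10-/- mice of 7 weeks, against -0.03, 0.11, 0.01 and 0.13 in C57 mice. At 12 weeks it had 0.12, -0.08, 0.07 and -0.24 in Il10-/- mice, against 0.02, 0.23, -0.11 and 0.30 in C57 mice. The genotypes overlapped at both ages, with a log2 difference of -0.02 ± 0.10 at 7 weeks (95% CI -0.23 to 0.19) and -0.14 ± 0.09 at 12 weeks (-0.34 to 0.05, adjusted p = 0.384 in the limma fit).

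Npas2 (chr1:39193702-39363240), which can stand in for Clock, was at -0.01, -0.07 and 0.02 in Il10-/- mice of 7 weeks, against -0.21, 0.03, -0.01 and -0.11 in C57 mice. At 12 weeks its levels were -0.09, -0.13, -0.19 and -0.09 in Il10-/- mice, against 0.29, 0.10, -0.09 and -0.06 in C57 mice. The highest C57 mouse, mouse 63, stood well above the rest, and the log2 difference at 12 weeks was -0.18 ± 0.08 (adjusted p = 0.169 in the limma fit).

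Clock (chr5:76209868-76305603), the DNA-binding partner of ARNTL, had the narrowest range of the members as a mean of 4 features, and genotype differences of 0.06 ± 0.05 at 7 weeks and 0.08 ± 0.05 at 12 weeks. Its features did not move together. Feature 14869, 1 of 3 annotated to the same Clock transcript, was at 0.08, 0.20, 0.04 and 0.08 in Il10-/- mice of 12 weeks, against 0.02, -0.27, -0.45 and -0.28 in C57 mice. These groups did not overlap, and the log2 difference of 0.35 ± 0.09 had an adjusted p of 0.031 over all features in the limma fit, but the fold fell short of 1.5. The other Clock features had differences of -0.01 ± 0.08, -0.12 ± 0.07 and 0.09 ± 0.07 at 12 weeks, so the result of feature 14869 was not shared by them. Where the features lie within the gene is not given in the sources used here.

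The repressors are the Per and Cry genes. Per2 (chr1:91415977-91459351), the Per gene whose loss is known to weaken the rhythm of mice, had levels of -0.04, -0.07 and -0.07 in Il10-/- mice of 7 weeks, against 0.19, 0.11, 0.17 and 0.14 in C57 mice. All Il10-/- mice were below all C57 mice, by -0.21 ± 0.08 (95% CI -0.37 to -0.05, adjusted p = 0.104 in the limma fit). Over all mice left out in turn the adjusted p ran from 0.027, without C57 mouse 64 of 12 weeks, to 0.244 (limma), always below a fold of 1.5. At 12 weeks Per2 was at 0.03, -0.13, -0.0007 and -0.04 in Il10-/- mice, against 0.11, -0.19, 0.18 and 0.09 in C57 mice, where the lowest animal of all was C57 mouse 64 and the difference was -0.08 ± 0.07. Both Per2 features had lower means in Il10-/- mice at 7 weeks, 23496 by -0.25 ± 0.08 without overlap and 39645 by -0.18 ± 0.13 with overlap.

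Cry2 (chr2:92403646-92434085), a repressor of the CLOCK and ARNTL pair, was at 0.06, -0.05 and -0.08 in Il10-/- mice of 7 weeks, against 0.30, 0.13, 0.23 and 0.09 in C57 mice. The groups did not overlap, and the difference was -0.21 ± 0.07 (95% CI -0.36 to -0.06, adjusted p = 0.084 in the limma fit). Of the Cry2 features, 22189 did not overlap at 7 weeks (-0.19 ± 0.08) and 10529 did (-0.22 ± 0.12). At 12 weeks the levels were 0.24, -0.01, 0.10 and 0.09 in Il10-/- mice, against -0.0047, 0.10, 0.10 and 0.13 in C57 mice, which overlapped fully (0.02 ± 0.06). Cry2 was the 1 member of 10 at an unadjusted p under 0.05 for the difference between ages of the genotype difference (0.23 ± 0.10), which did not pass adjustment (adjusted p = 0.234, limma). In this comparison 16.9% of all genes passed the unadjusted threshold, 1.15% were called, and 0 of 10 members were called.

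Per3 (chr4:150997018-151044707), a Per gene that is not needed to keep the rhythm running, was the member with the largest positive difference. It was at 0.51, 0.45 and 0.63 in Il10-/- mice of 7 weeks, against 0.61, -0.04, 0.23 and -0.07 in C57 mice. C57 mouse 43 lay among the Il10-/- mice and the other C57 mice lay below them, with a difference of 0.34 ± 0.15 (adjusted p = 0.185 in the limma fit). Without mouse 43 it was 0.49 (adjusted p = 0.030, limma), still below a fold of 1.5. Over all mice left out in turn the difference ran from 0.26 to 0.49 and its adjusted p up to 0.418 (limma). At 12 weeks Per3 was at 0.21, 0.54, 0.09 and 0.17 in Il10-/- mice, against 0.19, -0.09, -0.14 and 0.18 in C57 mice, with a difference of 0.22 ± 0.14 (adjusted p = 0.374, limma) and overlap.

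Per1 (chr11:69095108-69109965), which light and glucocorticoids induce, ranged from -0.01 to 0.43 in Il10-/- mice of 7 weeks, against 0.04 to 0.40 in C57 mice, and from 0.00 to 0.45 in Il10-/- mice of 12 weeks, against -0.13 to 0.27 in C57 mice. Its spread inside each group was larger than either genotype difference (-0.11 ± 0.13 and 0.14 ± 0.12). Cry1 (chr10:85131700-85185054), the stronger repressor of the Cry pair in mice, was at 0.02, -0.16, -0.07 and -0.10 in Il10-/- mice of 12 weeks, against 0.16, 0.16, -0.16 and 0.29 in C57 mice. C57 mouse 65 was as low as the lowest Il10-/- mouse, and the difference was -0.19 ± 0.08 (adjusted p = 0.154 in the limma fit), with 0.04 ± 0.08 at 7 weeks. Without mouse 65 the 12-week difference was -0.28 (adjusted p = 0.008, limma), still below a fold of 1.5, and over all mice left out in turn its adjusted p ran up to 0.349 (limma). The Cry1 level of C57 mouse 43 rests on 1 of its 2 features, 14963, since 12010 had no value in that mouse. The Cry1 features ran opposite ways at 7 weeks, 12010 by 0.22 ± 0.11 without overlap (mouse 43 not measured) and 14963 by -0.11 ± 0.09. At 12 weeks they differed by -0.29 ± 0.09 and -0.08 ± 0.09. Between ages the genotype difference changed by -0.51 ± 0.14 for 12010 (adjusted p = 0.089 over all features, limma) and by 0.03 ± 0.13 for 14963.

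The output genes gave the largest difference. Dbp (chr7:45705100-45710203), the D-box activator that is among the strongest cycling transcripts of mouse tissues, was at -0.44, -0.25 and -0.47 in Il10-/- mice of 7 weeks, against 1.00, 0.53, 0.37 and 0.01 in C57 mice. All Il10-/- mice were below all C57 mice, and the C57 mice spread widely. The log2 difference was -0.87 ± 0.26 (95% CI -1.43 to -0.31), a 1.82-fold lower level in Il10-/- mice, and it missed the threshold (adjusted p = 0.056, limma). It passed with only the 7-week groups in the fit (adjusted p = 0.018, limma), with array weights (adjusted p = 0.037, limma) and without C57 mouse 46 of 7 weeks, 64 or 65 of 12 weeks (adjusted p = 0.034, 0.032 and 0.019, limma). It did not pass without any other mouse (up to an adjusted p of 0.172 without Il10-/- mouse 78, limma). The mean of 8 leukocyte markers was also apart in these mice, at 0.04 to 0.35 in Il10-/- against -0.42 to -0.27 in C57. Of these markers S100a8 and S100a9 were called (1.53 ± 0.38 and 2.00 ± 0.37), and the rest differed by only -0.07 (Cd79a) to 0.29 (Lyz2). The mean of 4 endothelial markers was apart too, at -0.54 to -0.49 against -0.36 to -0.29. The part of leukocytes and endothelium in the differences of Dbp, Per2 and Cry2 was not tested.

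At 12 weeks Dbp was at -0.34, -0.22, 0.21 and 0.11 in Il10-/- mice, against 0.34, -0.35, 1.04 and 0.10 in C57 mice. The lowest and the highest animal were both C57 (mice 64 and 65), and the difference of -0.34 ± 0.24 had a 95% CI of -0.86 to 0.18 (adjusted p = 0.448, limma). Without C57 mouse 65 it was as small as -0.09. The genotype difference at 12 weeks minus that at 7 weeks was 0.52 ± 0.36 (adjusted p = 0.491, limma), so the ages were not shown to differ. Group means of Dbp ran, low to high, from Il10-/- mice of 7 weeks (-0.39 ± 0.12, SD, n = 3) through Il10-/- mice of 12 weeks (-0.06 ± 0.26, n = 4) and C57 mice of 12 weeks (0.28 ± 0.58, n = 4) to C57 mice of 7 weeks (0.48 ± 0.41, n = 4). No 2 neighbours in that order differed by more than the SD of the wider one, except Il10-/- mice of 7 and of 12 weeks, whose ranges still overlapped.

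**Figure D2:**
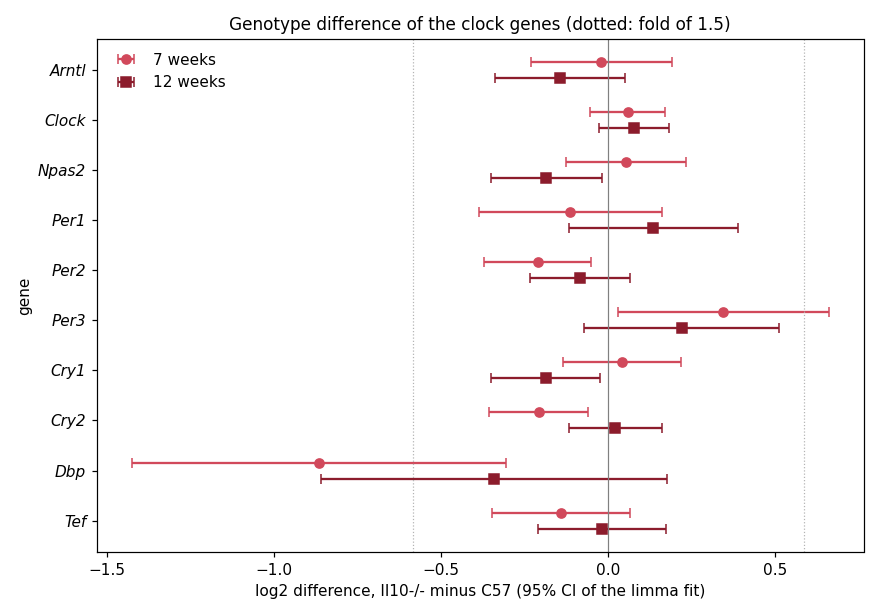
Log2 difference between Il10-/- and C57 mice for each clock gene at 7 weeks (circles) and 12 weeks (squares), with the 95% confidence interval of the limma fit. Dotted lines mark a fold of 1.5 in either direction. Only the point of Dbp at 7 weeks (-0.87) lies beyond a dotted line, and its interval reaches back to -0.31.

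Tef (chr15:81802673-81826863), a D-box activator and relative of DBP, had gene-level differences of -0.14 ± 0.10 at 7 weeks and -0.02 ± 0.09 at 12 weeks as the mean of 4 features. These features did not agree. Feature 29958 was at -1.12, -0.97 and -1.02 in Il10-/- mice of 7 weeks, against -0.01, -0.31, -0.35 and -0.67 in C57 mice, with no overlap. Its difference was -0.70 ± 0.21 (adjusted p = 0.060 over all features, limma), and at 12 weeks -0.32 ± 0.19 (adjusted p = 0.366, limma).

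Feature 43564 ran the other way, at 0.11, -0.13 and 0.04 in Il10-/- mice of 7 weeks against -0.33, -0.31, -0.33 and -0.54 in C57 mice, again with no overlap (0.38 ± 0.23, adjusted p = 0.428, limma). The remaining 2 features had differences of -0.17 ± 0.08 and -0.08 ± 0.10. The features 29958, 17591 and 29424 are annotated to 1 Tef transcript and 43564 to a separate cDNA. With the most variable feature in place of the mean of each gene, both Dbp and Tef were called at 7 weeks.

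**Figure D3:**
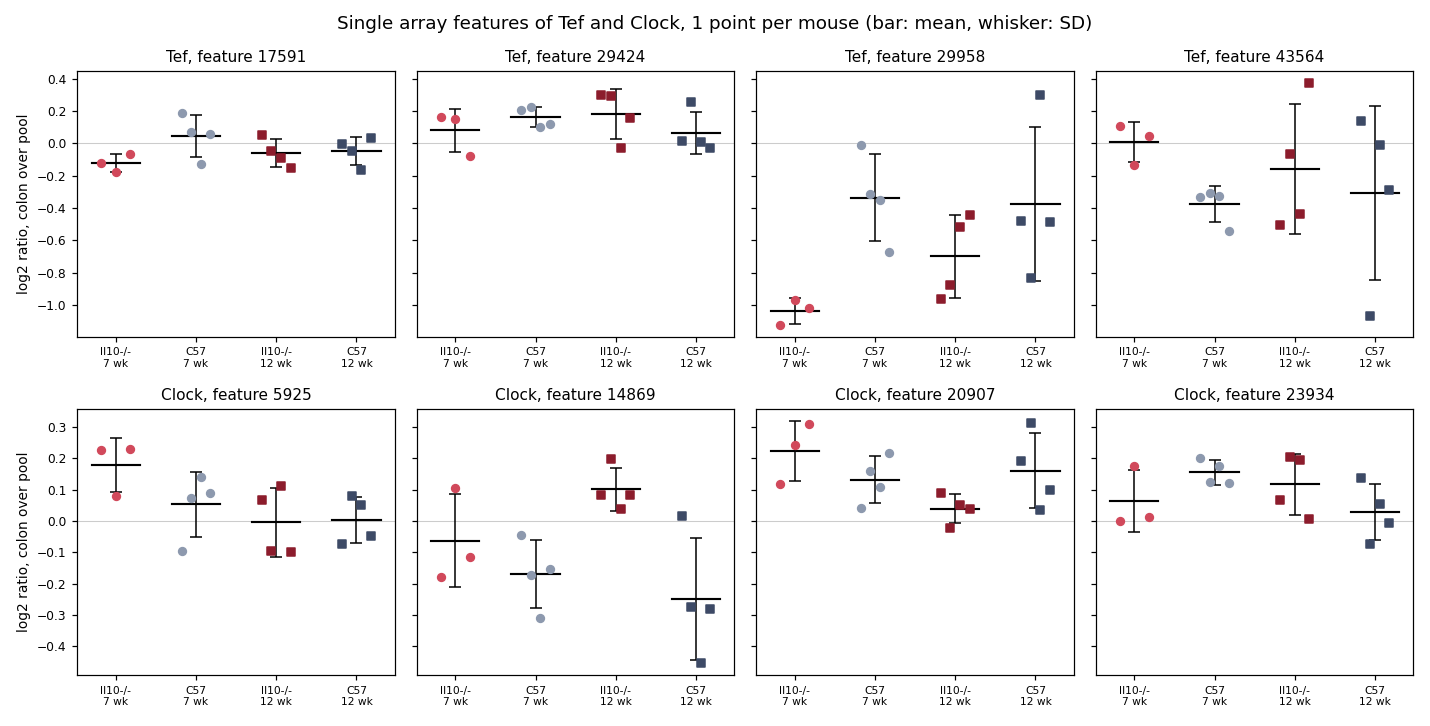
Levels of the 4 features of Tef (top) and the 4 of Clock (bottom) in single mice (log2 ratio of colon over the RNA pool), with 1 point per mouse, the group mean as a bar and the SD as a whisker. Tef feature 29958 is lower in all 7-week Il10-/- mice than in C57 mice and feature 43564 is higher, and Clock feature 14869 is the only Clock feature whose 12-week groups do not overlap.

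No member was called between the ages. Between 12 and 7 weeks, 0 of 10 members were called in Il10-/- mice and 0 of 10 in C57 mice, where 0.419% and 0.404% of all genes were called. At an unadjusted p under 0.05 the limma fit likewise held 0 of 10 members in both genotypes, with backgrounds of 13.7% and 13.2%. The largest age differences were 0.33 ± 0.26 for Dbp in Il10-/- mice and -0.22 ± 0.12 for Per1 in C57 mice. Npas2 was the only member without overlap between ages, 1 of 10 in Il10-/- mice, where 13.5% of all genes did not overlap, with a difference of -0.11 ± 0.08. In C57 mice it was 0 of 10 members and 8.62% of all genes. As these and the genotype comparisons share mice, their values are not independent of each other.

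The spread between mice of 1 group varied from member to member and was widest for Dbp. The SD of Dbp within groups was 0.40, which was 3.58 times the median gene and above 99.4% of all genes, while those of Per3 (0.22) and Per1 (0.19) were above 91.4% and 86.6%. Those of Arntl and Tef were above 67.8% and 66.4% of genes, and those of Npas2, Cry1, Per2 and Cry2 above 50.2%, 47.7%, 34.6% and 24.7%, so close to or below the median gene. Clock, at 0.05, was above only 1.78% of genes, although a mean of 4 features narrows the spread. The within-group spread was then compared between members, as the deviation of each mouse from the mean of its group, over 15 mice and 45 pairs of genes, with 100000 permutations of mice within groups. Per1 and Tef rose and fell together (r = 0.80, rho = 0.84, permutation p = 3e-05, adjusted p = 0.00135 for both measures), and without the mice farthest out in Per1 (75 and 96) r was 0.85.

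This was the only pair of 45 past an adjusted p of 0.05. Dbp and Tef had r = 0.83 and rho = 0.76 (permutation p adjusted 0.084 and 0.114), Arntl and Tef r = -0.80 and rho = -0.81 (permutation p adjusted 0.084 and 0.107), and Arntl and Per1 r = -0.68 and rho = -0.67 (permutation p adjusted 0.084 and 0.076). Arntl and Dbp had r = -0.67 and rho = -0.67 (permutation p adjusted 0.146 and 0.197). The signs were thus negative between the activator Arntl and the genes Per1, Dbp and Tef, and positive among those 3 genes, but only 1 of these pairs passed adjustment. The other Per and Cry genes shared this pattern only in part. Cry1 rose with Arntl (r = 0.73, rho = 0.61, permutation p adjusted 0.146 and 0.197) and fell with Per1 (r = -0.56). Per2 and Per3 had the signs of the pattern, with r of -0.30 and -0.14 to Arntl and 0.33 and 0.27 to Per1. To Dbp they had 0.65 and 0.16, and to Tef 0.60 and 0.29, and none of these passed adjustment. Cry2 had r = 0.16 with Arntl, but its features ran opposite ways. Cry2 feature 22189 had r = -0.61 with Arntl and 0.77 with Dbp, and 10529 had 0.53 and -0.30. For Per2, feature 39645 had r = 0.72 with Dbp and 23496 had -0.08. For Tef the negative sign with Arntl and the positive signs with Per1 and Dbp held for 2 of its 4 features. Feature 17591 had r = 0.50 with Arntl, -0.28 with Per1 and -0.20 with Dbp, and feature 29424 had 0.06, -0.08 and -0.35.

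In a family of 153 pairs of single features, added after the gene values had been seen, 2 pairs passed. Dbp and Tef feature 29958 moved almost in parallel (r = 0.97, rho = 0.95, permutation p adjusted 0.035 and 0.012), and still did without C57 mice 43 and 65, the farthest in Dbp (r = 0.92). Per1 and Tef feature 43564 was the other pair (r = 0.76, rho = 0.84, permutation p adjusted 0.038 and 0.034). Tef feature 29958 also had r = 0.61 with Per1, feature 43564 r = 0.57 with Dbp, and the 2 features r = 0.57 with each other. Whether they differ in which gene they follow was not tested.

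**Figure D4:**
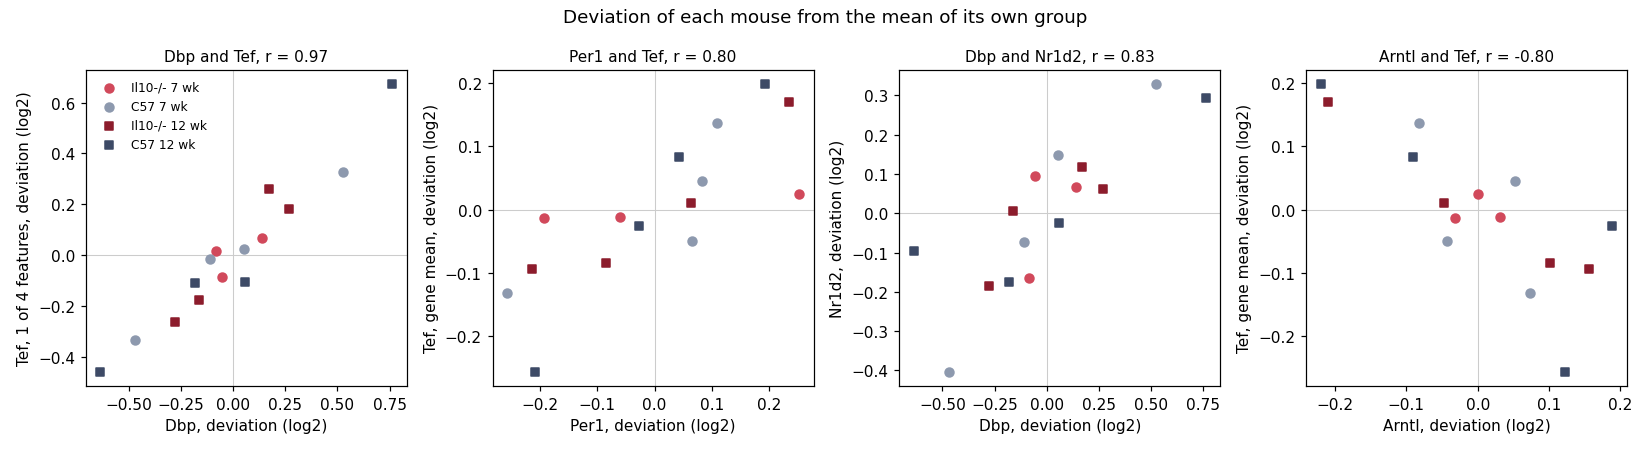
Deviation of each of 15 mice from the mean of its own group (log2), for 4 pairs of genes, with Il10-/- in red and C57 in blue-grey, circles at 7 weeks and squares at 12 weeks. Dbp and Tef feature 29958 lie along a rising line (r = 0.97), as do Per1 and the mean of Tef (0.80), whereas Arntl and Tef lie along a falling line (-0.80).

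The genes most like Dbp and Arntl in these deviations were ranked over 18715 other genes, as a description. The highest r to Dbp were those of H2-T10 (0.88), Mpeg1 (0.87), Oas1f (0.85), Tspyl3 (0.85) and Calml3 (0.84), and the lowest those of Mms22l (-0.92), Wdr63 (-0.87), Fam171a1 (-0.86), Hypk (-0.84) and Senp3 (-0.83). Among these 18715 genes Nr1d2, which encodes REV-ERB-beta, ranked 8th (r = 0.835) and Tef 11th. For Arntl the highest were Vmn1r67 (0.89), Ubxn1 (0.87), F830010H11Rik (0.86), Mcpt8 (0.85) and 4930500G05Rik (0.85), and the lowest Ccl9 (-0.89), Vav1 (-0.88), Olfr547 (-0.88), Alkbh1 (-0.87) and Rab31 (-0.86). Cry1 ranked 59th for Arntl and Tef 18705th of 18715, near the bottom of the order. With 15 mice, r of this size at the top of so many genes carries no weight for any single gene.

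Genes around the core loop were described from lists of nuclear receptors, other transcription factors, kinases and ubiquitin ligases, and output genes. Of the nuclear receptors, 1 of 4 measured was called, lower, at 7 weeks and 0 of 4 at 12 weeks. It was Nr1d2, at -0.32, -0.35 and -0.58 in Il10-/- mice of 7 weeks, against 0.58, 0.40, 0.17 and -0.15 in C57 mice. No Il10-/- mouse reached the lowest C57 mouse, and Nr1d2 fell by 0.66 ± 0.15 on the log2 scale (adjusted p = 0.010, limma). The call was lost without Il10-/- mouse 78 (adjusted p = 0.070, limma) and, by its fold, without C57 mouse 43 (a log2 difference of -0.56).

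At 12 weeks Nr1d2 was at -0.34, -0.15, -0.10 and -0.04 in Il10-/- mice, against 0.16, 0.09, 0.48 and 0.01 in C57 mice, also without overlap (-0.34 ± 0.14, adjusted p = 0.139, limma). Its relative Nr1d1, REV-ERB-alpha, had differences of 0.00 ± 0.06 and -0.03 ± 0.05, and Rora, an activator of Arntl, of -0.18 ± 0.07 and -0.04 ± 0.06 (adjusted p = 0.116 and 0.763, limma).

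Of 7 other transcription factors, 0 were called at 7 weeks (1 at an unadjusted p under 0.05 in limma) and 1 at 12 weeks. The background was 2.42% and 2.52% of all genes called, and 21.2% at the unadjusted threshold at 7 weeks. Nfil3, the repressor at D-boxes, was at -0.44, -0.34, -0.52 and -0.63 in Il10-/- mice of 12 weeks, against -1.33, -0.98, -1.26 and -1.11 in C57 mice. The groups stood clearly apart and Nfil3 rose by 0.69 ± 0.10 (adjusted p = 0.000188, limma). At 7 weeks its values of -0.43, -0.63 and -0.83 in Il10-/- mice were also above those of C57 mice, at -1.08, -0.94, -0.85 and -0.97, but the difference missed the threshold (0.33 ± 0.10, adjusted p = 0.063, limma). Bhlhe40, which represses at E-boxes, had -0.20 ± 0.11 and 0.13 ± 0.10.

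Of 10 kinases and ubiquitin ligases, 0 were called at either age. At an unadjusted p under 0.05 in limma they numbered 2 at 7 weeks and 1 at 12 weeks, with backgrounds of 21.2% and 22.9%. Those with the largest differences were Prkaa1, a subunit of the AMP-activated kinase, at -0.35 ± 0.07 at 12 weeks (adjusted p = 0.002, limma), and Csnk1e, a kinase of PER, at -0.26 ± 0.06 at 7 weeks (adjusted p = 0.015, limma), both below a fold of 1.5.

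Of 9 output genes, 1 was called at each age, with backgrounds of 2.42% and 2.52% of all genes. This was Ppara, a lipid-sensing nuclear receptor. It was at -0.94, -0.82 and -1.27 in Il10-/- mice of 7 weeks, against 0.06, 0.03, 0.04 and -0.19 in C57 mice, and at -1.20, -0.85, -0.64 and -1.16 in Il10-/- mice of 12 weeks, against -0.34, -0.09, -0.20 and -0.28 in C57 mice. Every Il10-/- mouse lay below every C57 mouse of its age, and Ppara fell by 1.00 ± 0.13 at 7 weeks and by 0.74 ± 0.12 at 12 weeks (adjusted p = 0.000182 and 0.000758, limma). Nampt, the salvage enzyme of NAD synthesis, differed by 0.57 ± 0.09 at 12 weeks (adjusted p = 0.000395, limma) at a fold of 1.48, and by 0.25 ± 0.09 at 7 weeks.

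Cdkn1a, the cell cycle inhibitor p21, was the 1 gene of these lists called for a difference between the ages, against 1.15% of all genes. It was at 0.87, 0.93 and 1.30 in Il10-/- mice of 7 weeks, against 0.45, 0.67, 0.45 and 0.36 in C57 mice, and at 0.74, 0.78, 0.51 and 0.53 in Il10-/- mice of 12 weeks, against 0.81, 0.77, 0.60 and 0.74 in C57 mice. The groups were apart at 7 weeks (0.55 ± 0.11) and not at 12 weeks (-0.09 ± 0.10), which gave a log2 difference of -0.64 ± 0.14 between the ages (adjusted p = 0.030, limma). This call was lost on leaving out any 1 of 7 mice (Il10-/- mice 78, 95 and 96, C57 mice 43, 45, 46 and 64), with a range of -0.73 to -0.51.

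**Figure D5:**
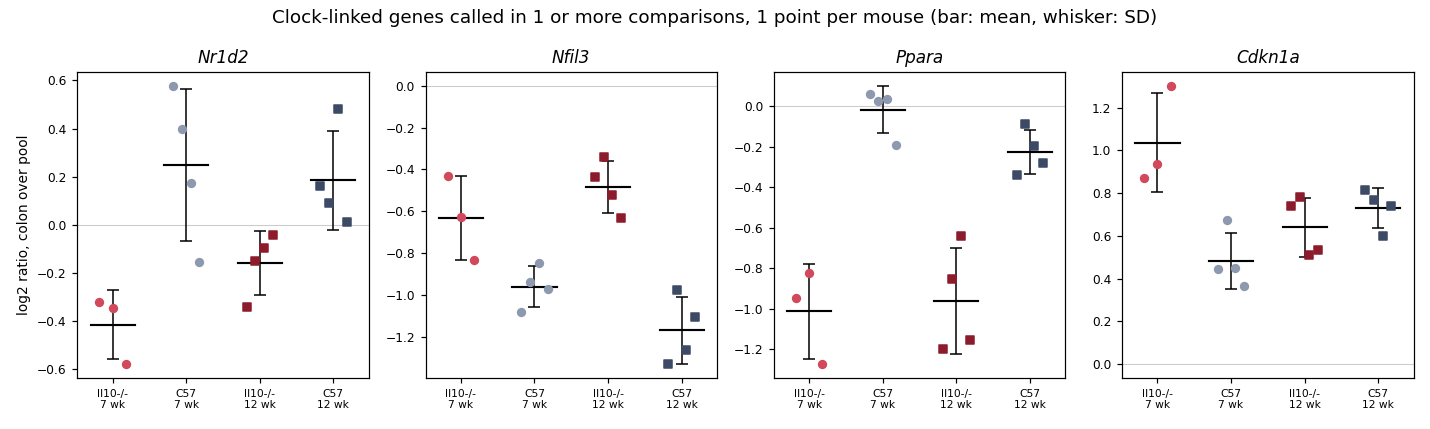
Levels of the 4 clock-linked genes outside the core list that were called in at least 1 comparison (log2 ratio of colon over the RNA pool), with 1 point per mouse, the group mean as a bar and the SD as a whisker. In Il10-/- mice Nr1d2 and Ppara are lower and Nfil3 higher than in C57 mice of the same age without overlap, and Cdkn1a is apart only at 7 weeks.

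Means of the marker lists of other cell types were compared in the same mice. The mean of 8 leukocyte markers was 0.04 to 0.35 in Il10-/- mice of 7 weeks, against -0.42 to -0.27 in C57 mice, and 0.37 to 0.80 in Il10-/- mice of 12 weeks, against -0.38 to -0.24 in C57 mice. Called higher were 2 of 8 markers at 7 weeks (S100a8 and S100a9) and 3 of 8 at 12 weeks (these and Lyz2). Of all genes, 2.42% and 2.52% were called in either direction. Markers not called differed by -0.07 (Cd79a) to 0.29 (Lyz2) at 7 weeks and by -0.10 (Cd3e) to 0.47 (Cd3g) at 12 weeks. The mean of 6 smooth muscle markers was 0.35 to 0.61 in Il10-/- mice of 7 weeks, against 0.45 to 0.66 in C57 mice, and -0.21 to 0.50 in Il10-/- mice of 12 weeks, against 0.11 to 0.76 in C57 mice. Fat markers (4 genes) ran from -0.45 to 0.92 in Il10-/- mice of 7 weeks, against 0.15 to 1.05 in C57 mice, and from -0.30 to 0.03 in Il10-/- mice of 12 weeks, against -0.13 to 0.89 in C57 mice. The mean of 4 endothelial markers was -0.54 to -0.49 in Il10-/- mice of 7 weeks, against -0.36 to -0.29 in C57 mice, without overlap, and -0.47 to -0.32 in Il10-/- mice of 12 weeks, against -0.43 to -0.39 in C57 mice. None of the 4 was called at 7 weeks, although Kdr (-0.27 ± 0.06) and Cdh5 (-0.28 ± 0.06) had an adjusted p of 0.006 and 0.009 (limma) below a fold of 1.5. Means of 4 markers of enteric nerve and glia were 0.06 to 0.24 in Il10-/- mice of 7 weeks, against 0.24 to 0.40 in C57 mice, and 0.01 to 0.25 in Il10-/- mice of 12 weeks, against 0.20 to 0.33 in C57 mice. Those of 10 epithelial markers were 0.63 to 0.74 in Il10-/- mice of 7 weeks, against 0.53 to 0.76 in C57 mice, and 0.49 to 0.64 in Il10-/- mice of 12 weeks, against 0.59 to 0.93 in C57 mice. On every array Krt8 had a value that 73 to 149 features of the array shared, and Krt20 had it on most arrays. Neither can be read as a level of its own, and both were kept in the mean. The part of these cell types in the differences of Per2, Cry2, Dbp, Nr1d2, Nfil3, Ppara or Cdkn1a was not tested. Within groups, r to Dbp ran from -0.40 (S100a9) to 0.50 (Lyz2) over the 8 leukocyte markers, from -0.38 (Lep) to 0.15 (Adipoq) over the 4 fat markers, and from -0.02 (Pecam1) to 0.39 (Cdh5) over the 4 endothelial markers. It ran from 0.19 (Tagln) to 0.37 (Actg2) for smooth muscle, -0.34 (Epcam) to 0.25 (Muc2) for epithelium and -0.44 (Gfap) to 0.53 (Elavl4) for nerve and glia. Means of 4 genes that glucocorticoids induce, Per1 among them, were -0.38 to -0.20 in Il10-/- mice of 7 weeks, against -0.23 to -0.02 in C57 mice, and -0.57 to -0.09 in Il10-/- mice of 12 weeks, against -0.31 to -0.03 in C57 mice. Their r to Dbp within groups was positive for all 4, from 0.38 (Fkbp5) to 0.59 (Per1), and their part in the differences of Dbp was not tested.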

How the data were processed

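Colon RNA of 15 mice, labelled in Cy3, had been hybridized against a Cy5 pool on Agilent arrays. The authors applied loess within arrays and no background correction to the intensity ratios. The deposited log2 ratios were used unchanged. A feature needed a value on 2 or more arrays of each group, and genes were the mean of the features annotated to that gene alone. No columns were left unmapped (0). Slides and scan dates are not given in the sources used here, and mice are the replicates.

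Genes were tested with limma 3.58.1 (R 4.3.3) on 4 group means with 11 residual degrees of freedom, which was also tested on simulated data. Correlations, motifs and figures used Python 3.11.15, pandas 2.3.3, numpy 2.4.6, scipy 1.17.1 and matplotlib 3.10.9. Alternatives were other scalings, priors, weights, features, thresholds and leaving out each mouse.

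The members and lists were chosen with earlier results of these data known. Text names all members, called genes of the other clock lists (at least 2 a list, by size), and the 5 genes most and least like Arntl and Dbp. Some listed genes were not analysed here.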

Additional observations from a re-analysis of the deposited data

Results flagged for a closer look

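Per1 in C57 mouse 46 of 7 weeks, at 0.0389, lay far below the other C57 mice of that age (0.36 to 0.40), with a gap of 0.88 of the group's range. It was 1 such case in 30 groups of members tested, where chance gives about 1 in 20. The genotype difference of Cdkn1a at 12 minus that at 7 weeks was -0.64 (adjusted p = 0.030, limma), by the test of the difference itself.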

How the results depend on the processing

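The count of members called at 7 weeks (0) became 1 with only the compared groups, 1 with array weights and 2 with the most variable feature of each gene (Dbp and Tef), and 0 to 1 on leaving out a mouse. The counts in the other 4 comparisons stayed at 0 under every alternative run. Pairs of members past the adjusted threshold numbered 1, and 2 with single features. Of 800 alternative values of the members in 30 differences, 783 kept direction and side of the threshold, 7 passed it (Dbp or Tef at 7 weeks) and 10 turned sign, all in 4 differences no larger than 0.02. Cry2 at 12 weeks was -0.0048 with array weights. On leaving out a mouse it was -0.0228 to 0.0585, Arntl at 7 weeks -0.0475 to 0.0041, Clock between ages -0.0095 to 0.047 and Tef at 12 weeks -0.1033 to 0.0482. The causes were not tested. A fold of 2 ended the calls of Nr1d2, Nfil3, Ppara and Cdkn1a, treat those of Nr1d2 and Cdkn1a, and scale or quantile normalization that of Cdkn1a.

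Calls over all genes at 7 weeks (461) were 1565 without a fold threshold, 131 at a fold of 2, 242 by treat and 903 over features. Here and below, counts over features are of 42128 features and not of 19076 genes, so they cannot be set directly against the others. At 12 weeks (481) they were 1929, 189 at a fold of 2 and 1035 over features. For the difference between ages (219) they were 430, 58, 34 by treat, 517 over features and 136 without Il10-/- mouse 78. Within Il10-/- mice (80) they were 264, 31, 28, 255, 52 with only the groups compared and 51 without mouse 78. Within C57 mice (77) they were 204, 26, 20, 139, 36 without mouse 44 and 46 without mouse 45. No paired analysis was possible because mouse numbers are not shared between groups. Limits are 3 or 4 mice a group, single features for 5 members, and a sampling time not given here.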
